A study of Mus musculus with 235 samples.

Results

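Neurotrophin signalling in the adult mouse brain was followed through 6 genes, across 8 punched regions and after a single dose of dexamethasone, a synthetic glucocorticoid. They are Bdnf and Ntf3 (neurotrophin ligands), Ntrk2 and Ntrk3 (Trk receptors), and Nrn1 and Vgf, which are induced by neurotrophins and by neuronal activity. They were chosen by name, and all 6 were found among the 27998 genes of the count table. The animals were 3-month-old male C57Bl/6 mice, 15 given dexamethasone at 10 mg per kg into the peritoneal cavity and 15 given saline, called vehicle here. Brains were perfused and collected 4 h later, and 8 regions were punched from coronal sections. They are PFC, AMY, PVN and CER and the hippocampal punches dCA1, vCA1, dDG and vDG, named as in the labels. Each punch gave 1 library of transcript 3' ends with molecular identifiers, with 13 to 15 libraries per region and arm, each from another animal. The question was where these genes are expressed and whether the drug changed their transcripts in any region.

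Neurotrophins are secreted growth factors that keep neurons alive during development and adjust synapses in the adult. Bdnf protein binds the receptor TrkB, made from Ntrk2, and neurotrophin-3, made from Ntf3, binds mainly TrkC, made from Ntrk3. An active Trk receptor recruits adaptor proteins that lead to the MAP kinase, PI3 kinase and phospholipase C pathways. All neurotrophins also bind the p75 receptor, made from Ngfr, and their uncleaved precursors bind p75 together with sortilin. In the hippocampus Bdnf is known for its part in synaptic plasticity, and its transcript responds to neuronal activity and to stress hormones. Ntrk2 and Ntrk3 are also transcribed as truncated forms without the kinase, and truncated TrkB is abundant in astrocytes.

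The genes lie on 5 chromosomes of GRCm38. Bdnf (ENSMUSG00000048482) spans chr2:109674700-109727007 on the plus strand, Ntf3 (ENSMUSG00000049107) chr6:126101412-126166910 on the minus strand, and Ntrk2 (ENSMUSG00000055254) chr13:58806596-59133970 on the plus strand. Ntrk3 (ENSMUSG00000059146) spans chr7:78175959-78738012 on the minus strand, Nrn1 (ENSMUSG00000039114) chr13:36725625-36734477 on the minus strand, and Vgf (ENSMUSG00000037428) chr5:137026392-137033351 on the plus strand. Counts refer to exons and were summed per gene from 3' ends. The 11 coding transcripts of Bdnf in GENCODE M21 begin at 9 start sites and share 1 3' end, so these counts cannot tell its promoters apart. Ntrk2 has 7 coding transcripts with 6 different 3' ends and Ntrk3 has 6 with 6, and the summed counts cannot tell full-length from truncated receptors.

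Upstream sequences of 3 start sites of Bdnf are shown because their upstream sequence holds letters of 2 motifs of interest here, the spaced core of a glucocorticoid response element, ACANNNTGT, and a cyclic AMP response element with 1 free base, TGACGTNA. The windows are the 250 bases before RefSeq start sites on GRCm38.p6, plus strand, read 5' to 3', and capitals mark the match, which was searched on both strands. The first is chr2:109692186-109692435 and holds TCACGTCA, the reverse complement of the second motif, 38 to 31 bases before the start. The next is chr2:109694159-109694408 with ACAGGCTGT 10 to 2 bases before the start, and the last is chr2:109709133-109709382 with ACACAGTGT 137 to 129 bases before it.
Bdnf upstream window A: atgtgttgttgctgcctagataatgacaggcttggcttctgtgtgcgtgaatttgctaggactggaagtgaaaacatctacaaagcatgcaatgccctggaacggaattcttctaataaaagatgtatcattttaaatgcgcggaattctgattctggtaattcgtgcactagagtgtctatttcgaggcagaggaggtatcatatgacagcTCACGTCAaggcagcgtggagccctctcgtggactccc
Bdnf upstream window B: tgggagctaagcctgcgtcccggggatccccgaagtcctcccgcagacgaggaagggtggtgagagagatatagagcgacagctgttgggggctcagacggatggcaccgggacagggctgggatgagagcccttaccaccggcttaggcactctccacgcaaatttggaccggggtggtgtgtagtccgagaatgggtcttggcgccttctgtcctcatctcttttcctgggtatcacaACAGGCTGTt
Bdnf upstream window C: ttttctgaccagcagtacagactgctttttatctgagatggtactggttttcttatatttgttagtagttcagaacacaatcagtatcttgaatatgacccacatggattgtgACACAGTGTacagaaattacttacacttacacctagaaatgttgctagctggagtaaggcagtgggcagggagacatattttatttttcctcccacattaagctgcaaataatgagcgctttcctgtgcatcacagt
RefSeq windows were found for Bdnf (7), Ntf3 (2) and Ntrk2 (1). Of these 10, ACANNNTGT was in 2 and TGACGTNA in 1, against 5.84% and 2.52% of all 32851 windows of this length, and the 2 motifs did not overlap in them. A match describes letters only, and no binding was measured. Ntrk3, Nrn1 and Vgf have no window in the table used.

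Depth per library lay between 268538 and 1451422 counts (median 742957). Levels are given as CPM, counts scaled to a library total of 1000000 after TMM normalisation. RNA integrity (RIN) averaged 7.75 and 7.81 in the PFC arms and 5.69 to 6.69 in the other groups. Markers went against the labels of dCA1 and CER and, in 4 libraries, of vCA1 and vDG. Some libraries of dDG and AMY also held markers of choroid plexus and of hypothalamic neurons. The dentate level, the mean log2(CPM + 1) of the granule cell genes Dsp, Stxbp6, Lct, Tdo2, Plk5 and Npnt, was 6.29 ± 0.54 (SD, n = 15) in dCA1 of vehicle animals, as high as in dDG (5.92 ± 1.02, n = 15), and 4.18 ± 0.95 (n = 15) in vDG against 3.29 ± 0.79 (n = 14) in vCA1. Of 3 genes of CA1 pyramidal cells, Fibcd1 was higher in dCA1 than in dDG (vehicle means of 52.7 and 41.8 CPM), and Wfs1 (43.0 and 58.4 CPM) and Pou3f1 (159.8 CPM in dCA1) were lower there than in dDG. The summed level of 4 markers of cerebellar granule cells had a median of 100.5 CPM in CER, inside the 46.8 to 137.4 CPM of the other regions. Most of that sum was Etv1 (CER median 92.8 CPM), whose vehicle means ran from 48.2 to 132.0 CPM over the regions, so the sum says little about that cell type. In CER no vehicle library held a count of Gabra6, which defines cerebellar granule cells. Gabra6 was instead above 100 CPM in 1 vehicle library of vCA1 (replicate 15) and 3 libraries of vDG (vehicle replicates 4 and 15, dexamethasone replicate 13), while the vehicle median in both punches was 0. Leaving out these 4 libraries, a choice made after seeing the data, kept the counts of calls for the 6 genes at 6 among regions, 1 for dexamethasone within regions, 0 on average and 0 for the interaction. The vehicle mean of Bdnf in vDG was then 85.2 ± 34.1 CPM (n = 13). In vehicle libraries of dDG the choroid plexus gene Ttr ran from 36.1 to 11280 CPM (median 1239). The hypothalamic neuron genes Oxt and Avp reached 167.3 and 553.8 CPM in AMY (medians 7.27 and 9.05). In PVN Oxt ran from 5.00 to 1474 CPM (median 118.3). The region names are used only as labels of punches.

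In vehicle animals all 6 genes differed among the 8 regions. This was tested with edgeR's quasi-likelihood F test with the animal as a block, at an adjusted p under 0.05, which 73.3% of the 10451 genes tested also passed, so that a call alone sets none of the 6 apart. The spread between the highest and the lowest region differed widely among the genes, from a log2 range of 4.35 for Ntf3 and 3.59 for Bdnf to 0.70 for Ntrk2. Neighbours in each order below were compared by the unadjusted 95% interval of their log2 difference, and 26 of 42 neighbouring pairs could not be separated. In bulk tissue, more cells of a type and more RNA per cell cannot be told apart.

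**Figure D1:**
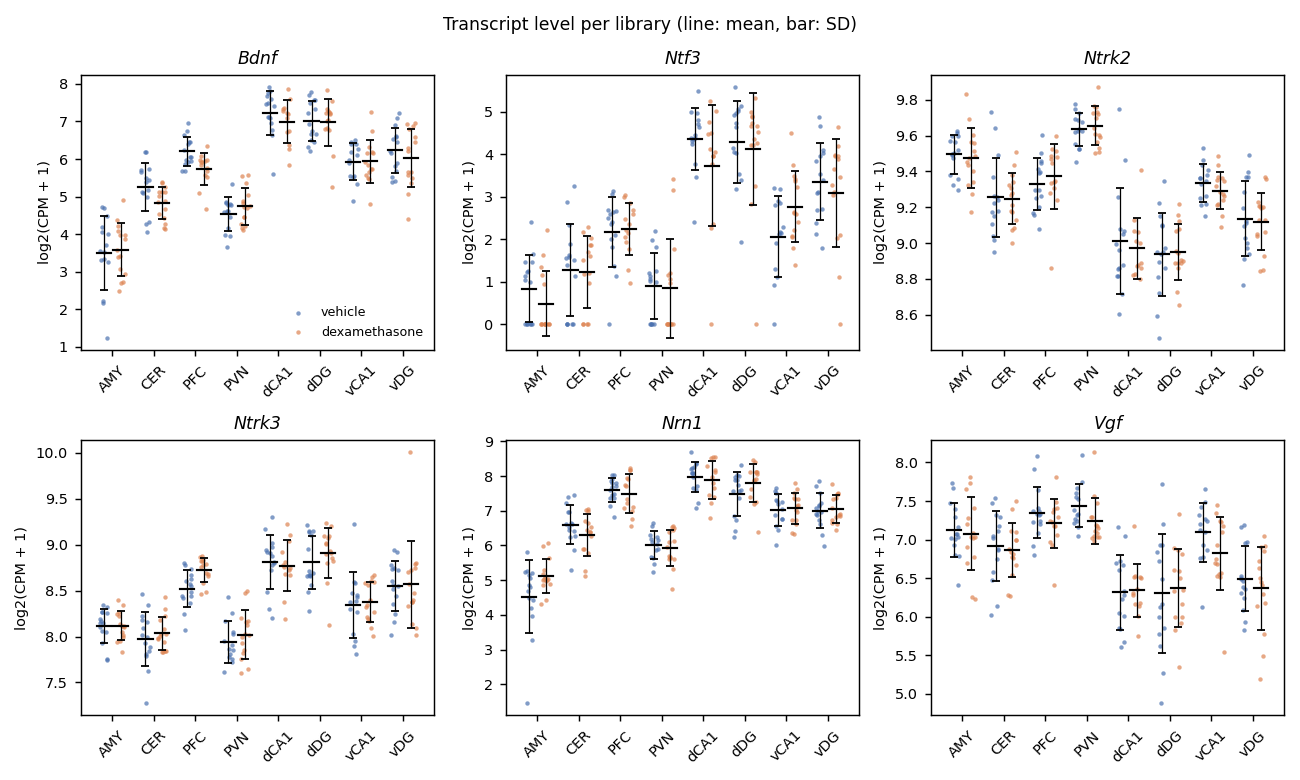
Transcript level of the 6 genes, as log2(CPM + 1), in every library of the 8 regions, vehicle in blue and dexamethasone in orange; black lines are means and bars SD. Bdnf, Ntf3 and Nrn1 changed most between regions, while the 2 arms overlapped in every region for all 6 genes.

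Bdnf, the main ligand of TrkB, was highest in the dorsal hippocampal punches. In dCA1 of vehicle animals it ran from 47.6 to 240.3 CPM with a median of 170.2 (mean 159.0 ± 53.0 SD, n = 15), and in dDG from 73.9 to 220.4 CPM with a median of 120.5 (136.9 ± 50.5, n = 15). The log2 difference between these punches was 0.22 (interval -0.087 to 0.52), which holds 0. The next group was vDG at 80.5 ± 34.0 CPM (n = 15), PFC at 75.3 ± 21.5 CPM (n = 15) and vCA1 at 63.0 ± 19.7 CPM (n = 14), whose neighbours were not separated either. CER followed at 40.7 ± 17.3 CPM (n = 15), PVN at 23.1 ± 7.20 CPM (n = 14) and AMY at 12.5 ± 7.36 CPM (n = 15), and each of these 3 was below the region before it by 0.65 to 0.83 on the log2 scale. The highest AMY library, at 25.3 CPM, was below the lowest library of dCA1, dDG, vCA1, vDG and PFC. The edgeR F test over regions gave F = 75.5 (adjusted p = 4.002e-37).

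Ntf3, the gene of neurotrophin-3, was a low-count transcript with a dorsal hippocampal maximum. Its mean was 22.3 ± 12.2 CPM in dDG and 21.8 ± 9.52 CPM in dCA1 (n = 15 each), which were not separated (log2 difference 0.040, interval -0.39 to 0.47). It was 11.3 ± 7.60 CPM in vDG (n = 15), below dCA1 by 0.99 (interval 0.52 to 1.46) on the log2 scale. PFC (4.07 ± 2.17 CPM, n = 15) and vCA1 (3.97 ± 2.67 CPM, n = 14) came next, and CER, PVN and AMY lay at 2.16, 1.15 and 1.07 CPM. In AMY 6 of 15 vehicle libraries had no count, and 10 counts were found in all 15, where a library without a count allows up to 3.04 to 6.79 CPM (3 counts of its total, counting error only). From PFC downwards no neighbouring pair was separated. The edgeR F test over regions gave F = 54.4 (adjusted p = 2.472e-31).

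The receptor genes varied far less. Ntrk2, which encodes TrkB, ran from 699.7 to 877.4 CPM with a median of 793.6 in PVN and from 354.1 to 649.8 CPM with a median of 492.8 in dDG, so that these 2 regions did not overlap. The means fell in order from PVN (795.4 ± 51.0 CPM, n = 14) through AMY (722.4 ± 53.3, n = 15), vCA1, PFC, CER, vDG and dCA1 to dDG (495.4 ± 78.4, n = 15). Only PVN from AMY and AMY from vCA1 were separated among the 7 neighbouring pairs. The edgeR F test over regions gave F = 21.5 (adjusted p = 3.385e-17).

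Ntrk3, which encodes TrkC, had another order, and its regional means ran against those of Ntrk2 (correlation -0.847 over 8 regions). It was highest in dCA1 (457.2 ± 88.4 CPM) and dDG (455.3 ± 91.2 CPM, n = 15 each), with vDG at 380.5 ± 68.9, PFC at 369.4 ± 49.6 (n = 15 each) and vCA1 at 333.3 ± 92.1 CPM (n = 14). AMY at 278.6 ± 34.0 and CER at 255.3 ± 50.1 (n = 15 each) and PVN at 247.7 ± 40.9 CPM (n = 14) closed the order, and neither AMY from CER nor CER from PVN was separated. The step from dDG to vDG was 0.26 (interval 0.072 to 0.45) and that from vCA1 to AMY 0.25 (interval 0.058 to 0.45) on the log2 scale. With F = 26.1 in the edgeR F test (adjusted p = 9.044e-20), its log2 range was 0.90.

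Nrn1 encodes neuritin, a membrane-anchored protein that promotes the growth of neurites. It ran from 134.1 to 410.3 CPM with a median of 269.5 in dCA1 (261.5 ± 73.9, n = 15), and this was above PFC (198.3 ± 43.3, n = 15), which was not separated from dDG (192.6 ± 71.7, n = 15). vDG and vCA1 were at 134.6 ± 45.6 (n = 15) and 134.4 ± 40.4 CPM (n = 14). It then stepped down to CER (102.5 ± 38.1, n = 15), PVN (65.4 ± 18.0, n = 14) and AMY (26.4 ± 13.2 CPM, n = 15), and the last step alone was 1.25 (interval 0.84 to 1.66) on the log2 scale. The edgeR F test over regions gave F = 58.3 (adjusted p = 1.538e-32).

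Vgf, the precursor of several secreted peptides stored in dense core granules, was highest in PVN, with 130.7 to 272.9 CPM and a median of 162.9 (175.8 ± 37.0, n = 14). PFC was at 166.3 ± 42.0, AMY at 142.3 ± 35.0 (n = 15 each), vCA1 at 139.9 ± 34.0 (n = 14) and CER at 124.8 ± 36.4 CPM (n = 15). The other hippocampal punches were lower, vDG at 92.8 ± 28.1, dDG at 88.9 ± 48.2 and dCA1 at 83.3 ± 29.1 CPM (n = 15 each). Of 7 neighbouring pairs only CER and vDG were separated, by 0.39 (interval 0.12 to 0.67) on the log2 scale. The edgeR F test over regions gave F = 18.7 (adjusted p = 1.75e-15).

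The members fell into opposed patterns over the 8 vehicle means, which are given as a description because regions come from the same animals. Bdnf and Nrn1 had a Pearson correlation of 0.963 over the 8 regions, and Ntf3 and Ntrk3, ligand and receptor, one of 0.951. Bdnf and its receptor gene Ntrk2 ran against each other (-0.858), and Ntrk2 followed Vgf (0.924). Among 10931 genes whose vehicle mean reached 5 CPM, patterns among those most like that of Bdnf were those of Zfpm2 (0.986) and Kcnj6 (0.983). For Ntf3 they were Adamts17 (0.987), Sfswap (0.985) and Brpf1 (0.982), and for Ntrk2 Cbarp (0.985), Zfp2 (0.980) and Gap43 (0.979). Ntrk3 was nearest to Ubtf (0.995), Eftud2 (0.995) and Smad3 (0.989), Nrn1 to Slc30a3 (0.971) and Bdnf, and Vgf to Tk2 (0.976), Hprt (0.969) and Camk1 (0.968).

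Within the hippocampal punches, 4 of the genes also followed the dentate level from library to library. Over 15 vehicle libraries of dCA1, Bdnf had r = 0.949 (Spearman's rho 0.875) with it, a permutation p of 2e-05 and an adjusted p of 0.00016 over 24 relations. In dDG it had r = 0.853 and rho 0.936 (permutation p 1e-05, the smallest that 100000 permutations can give, adjusted 0.00012), and in vDG r = 0.889 and rho 0.825 (permutation p 1e-05, adjusted 0.00012). The adjusted permutation p of rho was 0.00072, 0.00024 and 0.00204 in these punches. Without the 2 libraries farthest from the median dentate level r stayed at 0.836, 0.920 and 0.823, and centred within library plates it was 0.971, 0.834 and 0.887. Ntf3 was also higher where the dentate level was higher in the same 3 punches, with r = 0.832, 0.904 and 0.749 in dCA1, dDG and vDG (rho 0.743, 0.861 and 0.771, permutation adjusted p 0.00315, 0.00024 and 0.00366). The adjusted permutation p of its rho was 0.00525, 0.0006 and 0.00472. Without the 2 farthest libraries its r was 0.641, 0.789 and 0.694. Ntrk3 had r = 0.761, 0.714 and 0.732 in the same order (rho 0.654, 0.754 and 0.800, permutation adjusted p 0.00298, 0.00454 and 0.00454) and 0.523, 0.847 and 0.567 without those libraries, with adjusted permutation p of 0.0198, 0.00525 and 0.0023 for rho. Nrn1 had r = 0.707, 0.760 and 0.686 (permutation adjusted p 0.00589, 0.00315 and 0.00916), and 0.452, 0.659 and 0.552 without those libraries, with rho 0.532, 0.754 and 0.668, of which that in dCA1 did not pass (permutation adjusted p 0.0744). In vCA1, where the level was lowest, none of the 6 genes passed, with r from -0.407 to 0.388 over 14 libraries. For Ntrk2 in dCA1 r was -0.693 (permutation adjusted p 0.0195; rho -0.475, adjusted p 0.121) but -0.252 without the 2 farthest libraries, so that the relation in dCA1 rests on those. In dDG Ntrk2 passed for rho only (-0.604, permutation adjusted p 0.0355; r = -0.460, adjusted p 0.128), with r at -0.570 without the 2 farthest libraries. Vgf in dDG had r = -0.674 (permutation adjusted p 0.00916; rho -0.707, adjusted p 0.00994) and -0.432 without them. In vDG, without the 2 vehicle libraries that held Gabra6, r was 0.882 for Bdnf, 0.752 for Ntf3, 0.801 for Ntrk3 and 0.665 for Nrn1 (n = 13). Of the 24 relations 14 passed for r at a permutation adjusted p under 0.05. Dissection and the level of these genes per cell cannot be told apart in such relations. RNA integrity and depth also differed between libraries, and their part in these relations was not tested.

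**Figure D2:**
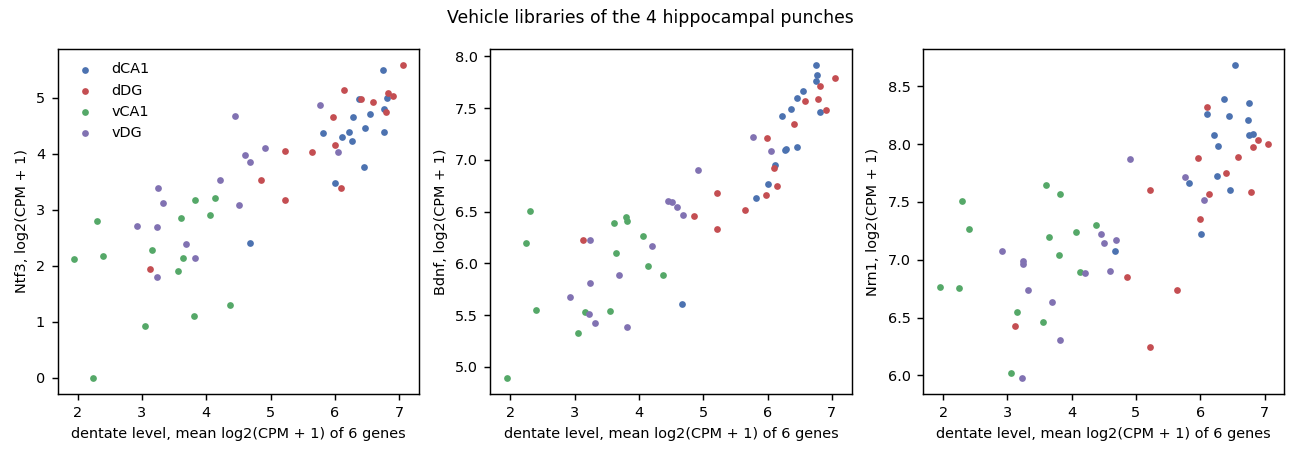
Ntf3, Bdnf and Nrn1 (vertical, log2(CPM + 1)) against the dentate level (horizontal) in vehicle libraries of the 4 hippocampal punches, 1 point per library. Most libraries of dCA1 and dDG share the upper right area, 1 dDG library at a dentate level of 3.12 lies among those of vCA1, and vCA1 in green lies low in dentate level with no clear slope of its own.

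After 4 h of dexamethasone Bdnf was lower in PFC, and this was the only 1 of 41 tests of the genes in single regions that passed (edgeR's quasi-likelihood test, adjusted p under 0.05 over all genes of the region). Of the 41, 3 had an unadjusted p under 0.05. A further 7 tests were not made because the counts were too low, Bdnf in AMY and Ntf3 in AMY, CER, PFC, PVN, vCA1 and vDG. The background of calls was 5.62% of genes tested in AMY (3.54% higher, 2.08% lower), 6.18% in CER (3.9% and 2.28%), 6.14% in PFC (3.86% and 2.28%) and 5.63% in PVN (3.57% and 2.06%). It was 4.68% in dCA1 (2.57% and 2.11%), 3.7% in dDG (2.33% and 1.37%), 5.45% in vCA1 (3.41% and 2.04%) and 3.93% in vDG (2.64% and 1.29%). The members' share of 1 in 41 is therefore not above the background.

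**Figure D3:**
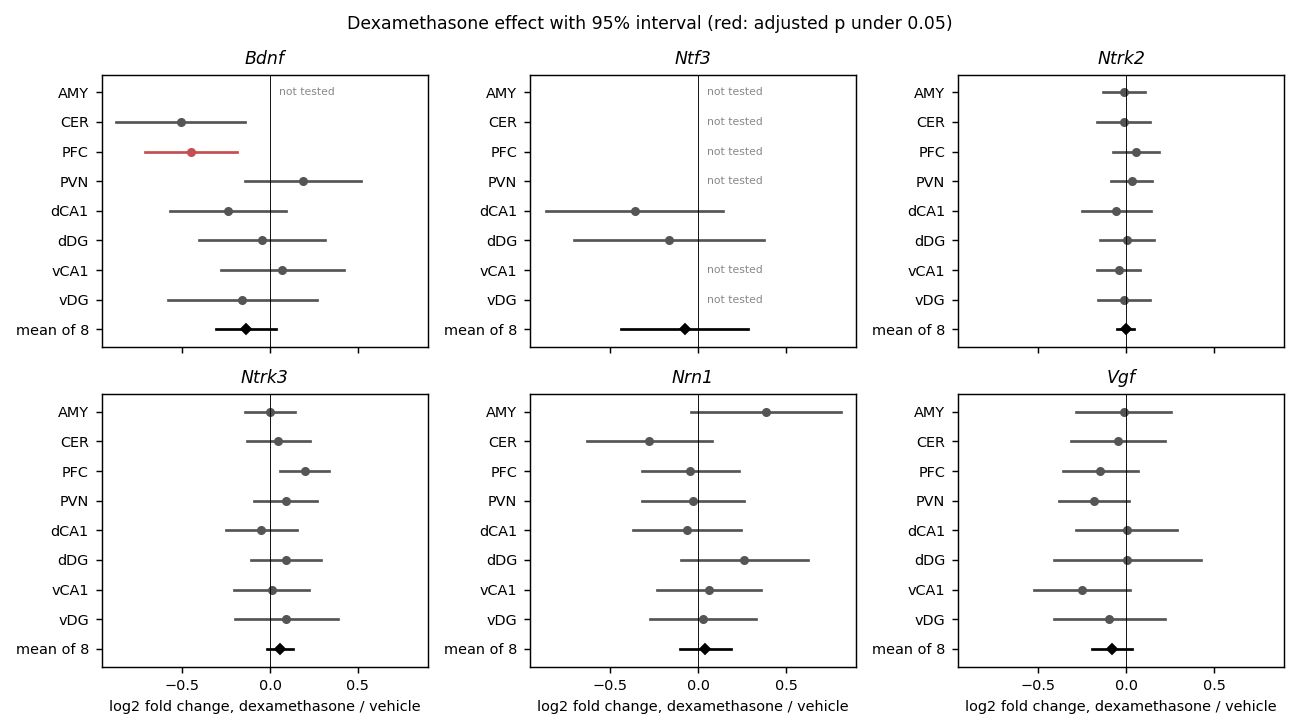
Log2 fold change of dexamethasone over vehicle (horizontal) with its 95% interval for each gene and region, and the mean of the 8 regions as a diamond; red marks an adjusted p under 0.05. Bdnf in PFC at -0.45 is the only red point, and the intervals of Ntrk2 are the narrowest.

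In PFC, Bdnf ran from 50.2 to 123.6 CPM with a median of 65.4 over 15 vehicle libraries and from 24.6 to 79.7 CPM with a median of 57.6 over 14 dexamethasone libraries. The arms overlapped, with 6 vehicle libraries above the highest treated one and 4 treated libraries below the lowest vehicle one. The means were 75.3 ± 21.5 CPM (SD, n = 15) and 54.3 ± 13.9 CPM (SD, n = 14), a log2 fold change of -0.45 ± 0.13 (SE, edgeR adjusted p = 0.0239). All 3 vehicle libraries of library plate 4, at 98.4, 105.7 and 123.6 CPM, were the highest of the region. The difference in mean log2(CPM + 1) was -0.53, -0.58, 0.0062 and -0.76 within plates 1 to 4, and negative on all 4 punching dates compared (-0.73 to -0.11). Without plate 4 (12 vehicle and 11 dexamethasone libraries) the log2 fold change was -0.34 ± 0.13 and the call was lost (edgeR adjusted p = 0.175). It was also lost without vehicle replicate 12 (-0.41, adjusted p = 0.0505) or vehicle replicate 8 (-0.38, adjusted p = 0.0564), both of plate 4, and held without any of the other 27 libraries. With punching date and plate as factors in the edgeR fit the fold change was -0.46 (adjusted p = 0.00618). These omissions were chosen after seeing the data.

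Cell type markers in PFC gave the following values beside this result. The summed level of the neuronal genes Rbfox3, Snap25 and Syt1 had a median of 3858 CPM in vehicle and 3832 CPM in dexamethasone, with 0 of 3 changed. Of the cortical neuron genes Slc17a7, Cux2, Rorb and Tle4, 1 of 4 was lower, and their sum ran from 513.8 to 743.2 CPM (median 615.4) in vehicle and from 393.4 to 688.3 CPM (median 551.4) in dexamethasone. Microglial markers were lower in 2 of 5, with sums of 244.2 to 382.8 against 138.9 to 191.3 CPM, and endothelial markers in 2 of 4 tested, with sums of 295.7 to 450.2 against 214.1 to 303.9 CPM. Their part in the Bdnf result was not tested.

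**Figure D4:**
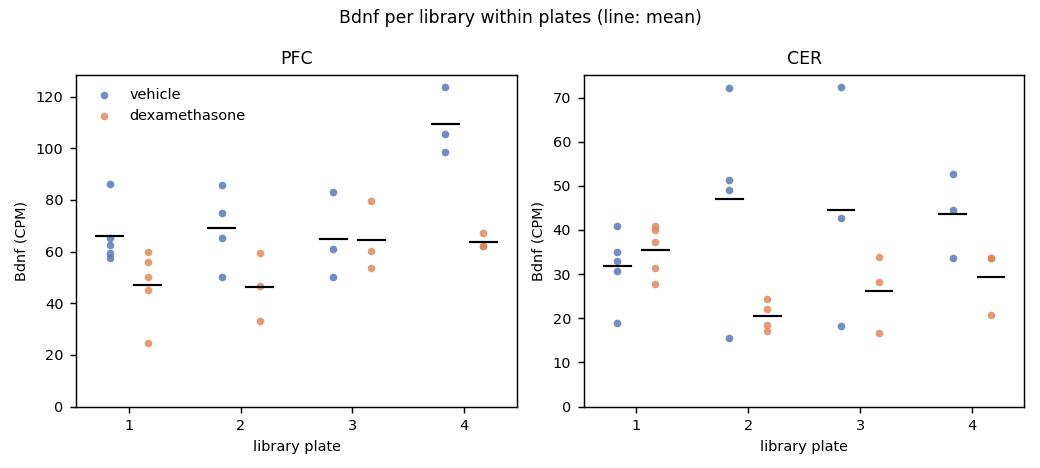
Bdnf level (CPM) of every library in PFC and CER by library plate (horizontal), vehicle in blue and dexamethasone in orange; lines are plate means. In PFC the 3 vehicle libraries of plate 4 lie above all others, and plate 3 shows no difference between arms.

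In CER the fold change of Bdnf had about the same size and did not pass. Vehicle libraries ran from 15.6 to 72.4 CPM with a median of 41.0, and dexamethasone libraries from 16.6 to 40.9 CPM with a median of 28.2. The vehicle group was the wider, and all treated values lay inside its range. The log2 fold change was -0.51 ± 0.18 (SE; interval -0.87 to -0.14; edgeR p = 0.00773, adjusted p = 0.101), negative within 3 of 4 plates and 3 of 4 dates. In the other regions tested Bdnf ran from -0.24 (dCA1) to 0.19 (PVN), and each interval held 0. In dCA1 the value of -0.24 became 0.018 with the dentate level as a covariate, and in vCA1 0.071 became -0.28, neither passing in edgeR (adjusted p = 0.976 and 0.701). The dentate level itself was 6.29 and 5.87 in dCA1 and 3.29 and 4.21 in vCA1, for vehicle and dexamethasone. It was measured after treatment and differed between the arms of these punches. Values with this covariate, here and below, therefore cannot separate the drug from the dentate level.

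Ntf3 was tested in dCA1 (-0.36, interval -0.86 to 0.14) and dDG (-0.17, interval -0.71 to 0.37), and neither passed. Adjusted for the dentate level, its dCA1 value was 0.0016 (edgeR adjusted p = 0.997). Its widest untested shift was in vCA1. There it ran from 0 to 8.27 CPM with a median of 3.48 over 14 vehicle libraries and from 1.64 to 21.6 CPM with a median of 5.11 over 15 dexamethasone libraries. The arms overlapped, and these values rest on 40 and 83 counts in all. When low counts were not filtered out the log2 fold change was 0.88 (edgeR p = 0.0161, adjusted p = 0.205), and the difference was positive within all 4 plates (0.40 to 1.39 in log2(CPM + 1)). The dentate level, which Ntf3 followed in the other hippocampal punches, was also higher in vCA1 after dexamethasone (above), and its part was not tested.

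Ntrk2 showed the tightest values of the 6. Its fold changes lay between -0.058 (dCA1) and 0.055 (PFC), and the 8 intervals reached from -0.25 to 0.19 at their widest. Adjusted for the dentate level, Ntrk2 in dCA1 was at -0.15 (edgeR p = 0.0759, adjusted p = 0.380). In PFC vehicle libraries ran from 539.8 to 777.0 CPM (median 628.7) and treated ones from 464.1 to 774.5 CPM (median 673.7), so that the arms shared nearly their whole range. Averaged over the 8 regions with limma-voom the change was -0.0030 (95% interval -0.050 to 0.044).

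Ntrk3 had its largest value in PFC. It ran from 267.8 to 445.8 CPM with a median of 374.9 in vehicle and from 352.0 to 467.7 CPM with a median of 434.9 after dexamethasone. The arms overlapped, and the treated group reached above the highest vehicle library. The log2 fold change was 0.20 ± 0.070 (SE, edgeR p = 0.00669, adjusted p = 0.0882), which did not pass. It was positive in 3 of 4 plates and on all 4 dates, and passed with DESeq2 (0.20, adjusted p = 0.0448), with the replicate number as a block (0.22, edgeR adjusted p = 0.0243), without plate 4 (0.26, adjusted p = 0.0443) and without dexamethasone replicate 8 (0.22, adjusted p = 0.0404). In the other 7 regions values lay between -0.049 and 0.093. Adjusted for the dentate level, dCA1 went from -0.049 to 0.062 and vCA1 from 0.0086 to -0.088, neither passing in edgeR. One vDG library after dexamethasone (replicate 13) reached 1026 CPM, against a median of 354.6 CPM in its group. It is among the 4 with Gabra6, and without those 4 the value in vDG went from 0.093 to -0.071 (edgeR adjusted p = 0.883).

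Nrn1 and Vgf, the activity-induced members, passed in no region. Nrn1 ran from -0.28 in CER (interval -0.64 to 0.081) to 0.39 in AMY (interval -0.039 to 0.81). Adjusted for the dentate level, Nrn1 went from -0.063 to 0.12 in dCA1 and from 0.062 to -0.16 in vCA1, neither passing in edgeR. The AMY vehicle group held 1 library at 1.75 CPM, from 1 count, with a group median of 26.6 CPM and a dexamethasone median of 31.9 CPM. Vgf was lower in 6 of 8 regions without passing, the furthest in vCA1 (-0.25, interval -0.53 to 0.022), where the medians were 143.0 and 106.5 CPM, and in PVN (-0.18, interval -0.38 to 0.018), where they were 162.9 and 140.9 CPM. In both the arms overlapped. In vCA1, where the dentate level was higher after dexamethasone (above), the value with that level as a covariate was -0.10 (edgeR adjusted p = 0.932), and in dCA1 it went from 0.0017 to -0.13 (adjusted p = 0.724).

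Averaged over regions no member passed. With limma-voom, the animal as a random block and equal weight to each region, 0 of 6 passed, against 20.9% of 11053 genes (9.92% higher, 11.0% lower), and 0 of 6 had an unadjusted p under 0.05. The edgeR test on counts summed per animal also called 0 of 6. Bdnf averaged -0.14 (95% interval -0.31 to 0.035, limma adjusted p = 0.31), Ntf3 -0.078 (-0.44 to 0.28), Ntrk3 0.056 (-0.018 to 0.13), Nrn1 0.040 (-0.11 to 0.19) and Vgf -0.079 (-0.19 to 0.035). A difference in response among regions was not detected either. The edgeR interaction test called 0 of 6, against 1.27% of 11053 genes, with 0 of 6 at an unadjusted p under 0.05 and with Bdnf at F = 1.42 (p = 0.199, adjusted p = 0.9998). The call for Bdnf in PFC is thus not shown to be particular to PFC.

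Calls in the wider pathway came from a few genes. Altogether 9 lists of 125 genes (ligands, receptors, precursor processing, adaptors, kinases, p75 signalling, induced genes, granule proteins and other growth factors) held 100 genes tested in at least 1 region. Of their 724 tests 38 were higher and 21 lower (8.15%), and without the members 58 of 683 (8.49%). The background per region was 3.7% to 6.18% of all genes tested, and these shares pool tests over regions of the same animals, so that 1 gene can be counted up to 8 times. These came from 18 genes, several called in many regions, and Ntf5 was tested in no region. The median log2 fold change of all genes tested lay between -0.016 and 0.0013 over the regions. The median of the genes induced by Bdnf or activity ran from -0.28 to 0.0048 over the regions, and that of the ligands, 1 or 2 genes a region, from -0.51 to 0.19. It ran from -0.046 to 0.084 for the receptors, -0.11 to 0.10 for processing, -0.097 to 0.082 for the adaptors, -0.096 to -0.0080 for the kinases, -0.12 to 0.016 for p75 signalling, -0.028 to 0.027 for granule proteins and -0.025 to 0.095 for other growth factors.

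Among receptors, 2 of 55 tests were higher, both of Sorcs1, a sortilin-related sorting receptor, in PFC (0.42 ± 0.11 SE, edgeR adjusted p = 0.0147) and CER (0.38 ± 0.12, adjusted p = 0.0409), of which the call in CER was lost without the filter on low counts and with only the libraries in the authors' tables. Ngfr was tested in 1 region (-0.13, not passing) and Sort1, which encodes sortilin, lay between -0.038 and 0.15 in all 8. In the processing list, 7 of 48 tests were higher and all were of Plat, tissue plasminogen activator, which starts the plasmin cascade that can cleave the Bdnf precursor outside the cell. In AMY Plat ran from 24.8 to 53.0 CPM with a median of 32.7 in vehicle and from 33.6 to 100.4 CPM with a median of 68.0 in dexamethasone. The arms overlapped at the lower end of the treated group. Its log2 fold change was 0.91 ± 0.13 (edgeR adjusted p = 1.798e-06) there, 0.40 to 0.73 in the 6 other regions called, and 0.33 in vDG, which did not pass. With the replicate number as a block it was called in 5 regions, without PVN (0.34, edgeR adjusted p = 0.0504) and dCA1 (0.39, adjusted p = 0.104). The call in dCA1 was also lost with date and plate as factors, and that in PVN without the filter on low counts.

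**Figure D5:**
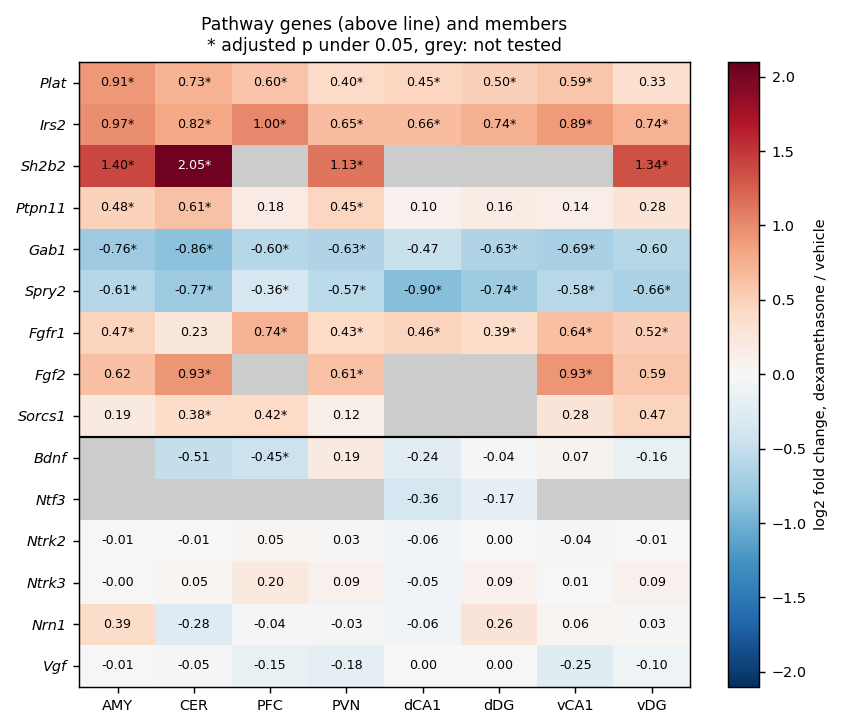
Log2 fold change of dexamethasone over vehicle by region (columns) for 9 pathway genes above the line and the 6 members below it; colour and number give the value, * an adjusted p under 0.05, and grey an untested gene. Irs2 is higher and Spry2 lower in all 8 regions, and of the members only Bdnf in PFC carries the mark.

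The adaptor list gave 15 higher and 8 lower of 151 tests, from 3 and 2 genes, and 16 and 9 with the replicate block. Over all genes 3.7% to 6.18% were called per region. Irs2, an insulin receptor substrate that Trk receptors can also use, rose in all 8 regions by 0.65 to 1.00 on the log2 scale (largest edgeR adjusted p = 4.602e-06). In vCA1 it ran from 93.5 to 169.1 CPM (median 112.3) in vehicle and from 175.0 to 300.2 CPM (median 216.9) after dexamethasone, and the arms did not overlap there, in AMY or in vDG. Sh2b2, an adaptor of the SH2B family that binds activated receptor kinases, rose in all 4 regions where it was tested by 1.13 to 2.05. In CER it ran from 2.02 to 16.6 CPM (median 7.33) in vehicle and from 21.6 to 51.5 CPM (median 38.9) in dexamethasone, and the arms did not overlap in CER and PVN. Ptpn11, the phosphatase SHP2, rose in AMY (0.48), CER (0.61) and PVN (0.45) and not past the threshold in the 5 other regions, and the difference among regions did not pass (edgeR interaction adjusted p = 0.0843).

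Gab1, a docking protein for PI3 kinase and SHP2, fell in 6 of 8 regions by 0.60 to 0.86 on the log2 scale, and was at -0.47 in dCA1 and -0.60 in vDG without passing. In vDG it was called when the fit was limited to libraries in the authors' tables (-0.67, edgeR adjusted p = 0.0384). In CER it ran from 40.0 to 79.9 CPM (median 64.6) in vehicle and from 21.2 to 46.8 CPM (median 34.1) in dexamethasone. The treated group overlapped only the lower part of the vehicle range. Irs1 accounted for the other 2 lower calls, in CER and dDG.

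Downstream kinases gave 1 higher and 2 lower of 196 tests, all in PFC, namely Rps6ka5 (0.57), Rps6ka3 (-0.34) and Akt2 (-0.40). The calls of Rps6ka5 and Rps6ka3 were lost without the filter on low counts, that of Rps6ka3 also with only the libraries in the authors' tables, and that of Rps6ka5 also with the replicate block (0.53, edgeR adjusted p = 0.0553). Without the filter other calls were gained, in regions where these genes were otherwise untested. Rps6ka1 was then lower in PVN (-0.80), dCA1 (-1.12) and dDG (-1.18, edgeR adjusted p = 0.00279), and Rps6ka2 higher in vCA1 (1.48, adjusted p = 0.0243). In CER Rps6ka5 had the opposite sign (-0.59, edgeR adjusted p = 0.0558) and was called lower with DESeq2, with the block (-0.61, adjusted p = 0.0482) and in the fit that held date and plate as factors. Under the block this list gave 2 higher and 5 lower. The p75 signalling list gave 0 of 63 in edgeR with 7 at an unadjusted p under 0.05, and with the block 2 higher, Irak1 in CER and PVN, and 2 lower, Lingo1 in PFC and Rtn4r in dCA1. Irak1 was also called in CER with DESeq2 (edgeR adjusted p = 0.0513 without the block, DESeq2 0.0466) and in both punches with date and plate in the edgeR fit (adjusted p = 0.00538 and 0.0385), and Rtn4r in PFC with only the libraries in the authors' tables. Of the genes induced by Bdnf or activity, 10 of 87 tests were lower and none was higher, against 11 lower and 2 higher (Junb in PVN and Nr4a1 in dDG) with the block. Spry2, a feedback inhibitor of receptor kinase signalling, fell in all 8 regions by 0.36 to 0.90 on the log2 scale (largest edgeR adjusted p = 0.0272). In dCA1 it ran from 61.0 to 149.6 CPM (median 107.5) in vehicle and from 43.4 to 68.5 CPM (median 54.4) in dexamethasone. The arms met only between 61.0 and 68.5 CPM. The other 2 were the synaptic genes Arc in CER (-0.79, adjusted p = 0.0124) and Homer1 in vCA1 (-0.39, adjusted p = 0.0273, lost with date and plate as factors and with only the libraries in the authors' tables). The dentate level differed between the arms of vCA1 (above), and its part in the Homer1 call was not tested. Dense core granule proteins, the company of Vgf, gave 0 of 83 in edgeR with 3 at an unadjusted p under 0.05, and with the block 1, Scg2 in dCA1 (-0.33, adjusted p = 0.0227).

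Other growth factor genes of neurons gave 13 of 79 tests higher and none lower. Fgfr1, a fibroblast growth factor receptor, rose in 7 of 8 regions by 0.39 to 0.74, with PFC libraries from 71.0 to 143.0 CPM (median 92.5) in vehicle and from 106.3 to 179.6 CPM (median 153.5) after dexamethasone. Its ligand gene Fgf2 rose in CER (0.93), PVN (0.61) and vCA1 (0.93) of 5 regions tested. With only the libraries in the authors' tables it was tested in 4 regions, without vCA1, and called in 2. The others were Igf1r in PFC and CER (0.24 to 0.30), which was also called in vCA1 with only those libraries and in vDG with date and plate as factors, and Gfra2, a receptor for neurturin, in dDG (0.57). In PFC Gfra2 was at -0.22 (edgeR adjusted p = 0.0833), and it was called lower there with the block (-0.24, adjusted p = 0.0232) and with date and plate as factors (-0.23, adjusted p = 0.0419). With the block Fgfr1 was called in all 8 regions. Over the same regions microglial and endothelial marker sums were lower after dexamethasone, with 2 markers of each list lower in each of the 8 regions, and their part in these list results was not tested.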

How the data were processed

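Raw counts per gene were deposited by the authors as 1 table of whole numbers (27998 genes). Per the submitters' processing notes, FastQC 0.11.4, cutadapt, UMI-tools 0.5.4, STAR 2.6.0a, featureCounts 1.6.4, DESeq2 1.30.1 and R 4.0.5 were used on mm10; the annotation and strand setting are not given in the sources used here. Tables of variance-stabilised log2 values deposited by the authors list 228 of the libraries and served only to choose libraries for an alternative. Symbols came from GENCODE M21 (27645 of 27998 genes).

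Each region was fitted alone with edgeR 4.0.16 (filterByExpr, TMM, quasi-likelihood test, dexamethasone against vehicle, Benjamini-Hochberg over all genes tested, threshold 0.05). Interaction and region tests used all libraries or the vehicle libraries with the animal as a block. The mean of 8 regions used limma 3.58.1 voom with the animal as a random block (correlation 0.0198). DESeq2 1.42.0 was an alternative. Per the labels, vehicle and dexamethasone libraries of 1 replicate number came from different animals but had the same library plate in all 115 pairs and the same punching date in 109, so the number pairs them by batch. In 73 of the 115 pairs the 2 libraries deviated together (correlation over 0.1), and in no region did all pairs. Values with the number as a block are given where it changed the call of a member or of a gene named by the rule below, or moved a list's count by over 1.5 times. R 4.3.3 and Python 3.11.15 were used. Groups came from titles and treatment labels. The members and lists were chosen with earlier results of these data known. Genes were named by rule: the members, up to 4 genes per list called in the most regions, the 3 nearest regional patterns per member, and marker genes that bear on a member. Irs1, Ntf5, Ngfr, Sort1, Irak1, Lingo1, Rtn4r, Junb, Nr4a1, Scg2, Rps6ka1 and Rps6ka2 were named outside this rule, after their values were seen. Some genes the rule selects are not reported here.

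In simulated data for PFC the fit recovered 65 of 100 changes of 0.5 and 99 of 100 changes of 1 log2 unit among 9198 genes. The interaction test recovered 27 of 100 and 74 of 100 such changes placed in PFC alone. No 2 libraries of a group agreed within sampling noise (smallest chi-square per degree of freedom 1.34).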

Additional observations from a re-analysis of the deposited data

How the results depend on the processing

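The count of member calls per region was 1, and 2 with DESeq2 and 2 with the replicate block, where Ntrk3 in PFC joined Bdnf. The calls in the pathway lists went from 59 to 39 with at least 10 counts in every library, where 518 of the 724 tests remained and Sh2b2, Gab1 and Fgf2 were tested nowhere. The replicate block raised the pathway calls to 73, with 17 gained and 3 lost among members and lists together, and changed no other member call. Averages over regions, interactions and regional differences of the 6 genes kept their counts of calls (0, 0 and 6) under every alternative run. For Bdnf in PFC the edgeR or DESeq2 adjusted p ran from 0.0014 to 0.0367 over the settings other than left-out libraries. Leaving out 1 PFC library at a time, Bdnf ran from -0.51 to -0.38 and Ntrk3 from 0.17 to 0.22, and leaving out plate 4 gave -0.34 and 0.26. Both omissions were added after seeing the data. Single libraries of other regions were not left out in turn. Plat was called in 5 to 7 regions and Sorcs1 in 1 or 2. When low counts were not filtered, 16 calls were gained and 4 lost among members and lists together, and Sh2b2 was called in 8 of 8 regions. Without the 4 libraries with Gabra6, 60 pathway tests were called. No member result reversed where it was called. Depth limits Ntf3 most, whose median count was 0 to 7 per library in 6 regions. P-values over regions of the same animals are not independent of each other.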
